A study of Mus musculus with 16 samples.

Results

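Smooth muscle contractile genes were followed in cultured mouse ovarian follicles through 9 genes chosen by name, namely Acta2, Actg2, Tagln, Cnn1, Tpm2, Myh11, Myl9, Mylk and Des. They were represented by 18 probe sets annotated to one of these genes alone, and 7 of the 9 genes passed the signal filter among 12172 genes tested. The follicles, preantral to small antral in stage, were dissected from the ovaries of C57BL/6Tac mice aged 6 to 8 weeks in the design text and 8 weeks in the sample labels. The 4 groups, with 4 arrays each and 16 in all, were follicles cultured for 24 h with 50 ng/ml recombinant anti-Müllerian hormone (AMH), 24 h controls without AMH, follicles cultured for 12 h with 50 ng/ml AMH and 12 h controls. All 4 groups received 80 IU/L follicle-stimulating hormone and 10 IU/L luteinizing hormone. AMH is a TGF-β family hormone made by granulosa cells of growing follicles.

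Each array held 6 to 9 whole follicles drawn from a pool of 8 mice, and an AMH array and its control shared a pool, which gave 4 pairs at each time. The labels do not say whether the 12 h and the 24 h cultures shared pools, so time and pool cannot be told apart, and samples from before culture were not analysed here. In such bulk samples, fewer cells of a type and less RNA per cell cannot be told apart. The number of arrays limits the precision. In the AMH comparisons, p-values measure the spread of differences within pairs. In the time comparisons of each arm they measure the spread between arrays within groups, pooled over the groups and without a term for shared pools. Only the time comparison that averaged both arms of a pool measures the spread between pools.

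Smooth muscle cells contract when calcium signals activate myosin light chain kinase, which phosphorylates the regulatory light chain of myosin and lets myosin pull on actin filaments. Tropomyosin, calponin and transgelin bind those filaments, and desmin forms intermediate filaments that link them across the cell. Transcription of many of these genes is driven by serum response factor (SRF) bound to a short A- and T-rich element, the CArG box, together with its coactivator myocardin. In the ovary such cells lie in the walls of vessels, in the stroma and in the theca externa, the outer sheath of larger follicles.

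The promoters of the 3 genes that were higher at 24 h when both arms of each pool were averaged are shown first. They cover 250 bases before to 50 bases after the annotated start, from RefSeq on GRCm38.p6, and capitals mark a CArG box. The box was searched by its full consensus, which reads the same on both strands. Of the 9 genes, 6 matched an entry of the promoter table (Acta2, Cnn1, Des, Myl9, Tpm2 and Mylk), and Tagln, Myh11 and Actg2 did not.
Myl9, chr2:156775214-156775513, plus strand: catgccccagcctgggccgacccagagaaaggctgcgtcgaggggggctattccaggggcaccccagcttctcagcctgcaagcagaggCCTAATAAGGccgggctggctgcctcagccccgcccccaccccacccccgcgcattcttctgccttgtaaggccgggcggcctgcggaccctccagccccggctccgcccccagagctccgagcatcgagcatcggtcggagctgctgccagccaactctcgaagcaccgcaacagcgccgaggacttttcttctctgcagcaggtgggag
Mylk, chr16:34784700-34784999, plus strand: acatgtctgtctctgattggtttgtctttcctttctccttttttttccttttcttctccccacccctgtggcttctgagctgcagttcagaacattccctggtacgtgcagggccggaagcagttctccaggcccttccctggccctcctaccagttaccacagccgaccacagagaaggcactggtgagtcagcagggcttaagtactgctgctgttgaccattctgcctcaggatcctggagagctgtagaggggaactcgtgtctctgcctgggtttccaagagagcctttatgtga
Acta2, chr19:34255324-34255623, minus strand: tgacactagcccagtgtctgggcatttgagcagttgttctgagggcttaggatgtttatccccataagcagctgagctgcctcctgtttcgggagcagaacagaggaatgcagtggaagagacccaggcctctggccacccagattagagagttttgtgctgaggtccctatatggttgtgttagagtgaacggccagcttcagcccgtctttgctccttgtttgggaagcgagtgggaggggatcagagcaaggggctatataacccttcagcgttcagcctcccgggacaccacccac
The Myl9 window held the only full box of the 6, CCTAATAAGG, whose first base lay 161 bases before the start. A full box was present in 535 of 32851 promoters of that table (1.63%). The window taken for Mylk lay inside the annotated gene (chromosome 16, 34745199 to 35002436). Acta2 spans 34240336 to 34255585 on chromosome 19 and Myl9 156775408 to 156781657 on chromosome 2. The starts used for the Acta2 and Myl9 windows also lay inside these spans, so more than 50 bases of each window overlap the gene. The 161 bases of the Myl9 box are counted from the start used, not from the first base of that span. No degenerate form of the box was searched, and the absence of the full consensus says only that these letters are not in the window.

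Signals are the deposited linear intensities, whose trimmed mean was 150 on every array, so the arrays already shared a common scale. Changes are differences of log2(signal + 1.46), and the added offset of 1.46 makes those of dim genes smaller. The arrays had median signals between 27.7 and 40.1, Gapdh 3′ to 5′ signal ratios between 1.37 and 1.95, and correlations between 0.923 and 0.977 within groups. Marker genes of oocytes (14 of 14), granulosa cells (9 of 10), stroma (9 of 10) and endothelium (10 of 10) passed the filter, as did all 6 pericyte markers. The mean log2 level of such a list spanned a 5.87-fold range over the arrays for granulosa cells, 5.46-fold for stroma and 5.02-fold for oocytes. The control array of replicate 3 at 12 h stood apart, with the highest sum over the 16 arrays of oocyte marker signals (13022) and the lowest of granulosa marker signals (2934).

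Myl9 encodes the regulatory light chain of smooth muscle myosin, the substrate of myosin light chain kinase. Its signal (probe set 1452670_at) was 796, 1114, 695 and 885 with AMH at 24 h and 754, 1059, 1065 and 735 in 24 h controls. At 12 h it was 342, 327, 292 and 170 with AMH and 142, 134, 401 and 251 in controls. Every 24 h array lay above every 12 h array, and at each time the AMH and control arrays overlapped. The group means of log2 signal were 9.75 ± 0.29 with AMH at 24 h, 9.80 ± 0.30 in 24 h controls, 8.10 ± 0.46 with AMH at 12 h and 7.72 ± 0.74 in 12 h controls (SD, n = 4 each).

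Mylk encodes myosin light chain kinase. Its brightest probe set (1425506_at) had signals of 1800, 1567, 1455 and 1142 with AMH at 24 h and 971, 1330, 1476 and 1196 in 24 h controls. The 12 h signals were 757, 684, 777 and 731 with AMH and 462, 569, 852 and 509 in controls. Again every 24 h array exceeded every 12 h array, while the arms overlapped at each time. Mean log2 signals were 10.52 ± 0.27 with AMH at 24 h, 10.26 ± 0.26 in 24 h controls, 9.53 ± 0.08 with AMH at 12 h and 9.19 ± 0.39 in 12 h controls (SD, n = 4 each).

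Myh11 encodes the heavy chain of smooth muscle myosin. It was measured by 1448962_at, with signals of 95.9, 108, 59.8 and 67.2 with AMH at 24 h and 57.4, 75.9, 52.3 and 110 in 24 h controls. The 12 h signals were 26.1, 49.2, 56.6 and 63.5 with AMH and 56.6, 42.5, 140 and 62.0 in controls. The groups overlapped at each time and between the times, although 3 of the 4 AMH arrays at 24 h lay above all 4 AMH arrays at 12 h. A second probe set of Myh11, 1418122_at, stayed below the filter, with signals between 1.43 and 20.5.

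Acta2, the alpha actin of vascular smooth muscle, was measured by 1416454_s_at. Its signals were 1153, 987, 977 and 1221 with AMH at 24 h and 874, 885, 1187 and 850 in 24 h controls. At 12 h they were 708, 339, 714 and 408 with AMH and 297, 334, 1009 and 747 in controls. The AMH arrays did not overlap between times, whereas the 12 h control of replicate 3 exceeded 3 of the 4 controls at 24 h. The suffix of this probe set marks a match to more than 1 transcript, and cross-hybridisation between actin genes was not tested. The other probe sets of Acta2, 1444105_at and 1456658_at, stayed below the filter, with a highest signal of 13.4 and 12.5.

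Actg2, the gamma actin of enteric smooth muscle, was dim and variable (1422340_a_at). Its signals were 38.4, 30.9, 30.0 and 53.5 with AMH at 24 h and 24.3, 21.6, 36.4 and 29.1 in 24 h controls. The 12 h signals were 17.2, 15.2, 33.0 and 19.1 with AMH and 1.43, 12.4, 63.2 and 56.9 in controls. The 12 h controls alone covered the range of all other arrays.

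Tagln encodes transgelin (SM22), an actin-binding protein abundant in smooth muscle. Its signal (1423505_at) was 237, 258, 152 and 308 with AMH at 24 h and 171, 164, 231 and 155 in 24 h controls, against 129, 58.6, 107 and 94.2 with AMH at 12 h and 59.9, 46.6, 311 and 212 in 12 h controls. The AMH arrays separated by time and the controls did not. The 12 h controls held both the lowest and the highest value of the 16 arrays.

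Tpm2 encodes beta-tropomyosin, which lies along the actin filament. Its brightest probe set (1425028_a_at) ranged from 1024 to 1176 with AMH at 24 h, from 830 to 1118 in 24 h controls, from 761 to 995 with AMH at 12 h and from 642 to 1220 in 12 h controls. These were narrow ranges beside those of Tagln and Actg2.

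Calponin 1 (Cnn1) and desmin (Des) were not tested. The single Cnn1 probe set ran from 1.69 to 31.1 over the 16 arrays with a median of 8.19. The Des probe sets ran from 2.13 to 25.2 (median 11.1) and from 0.14 to 5.39 (median 0.818). Calponin 1 marks differentiated smooth muscle and desmin marks muscle cells, and the median of each of their probe sets lay below the filter signal of 16.6.

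**Figure D1:**
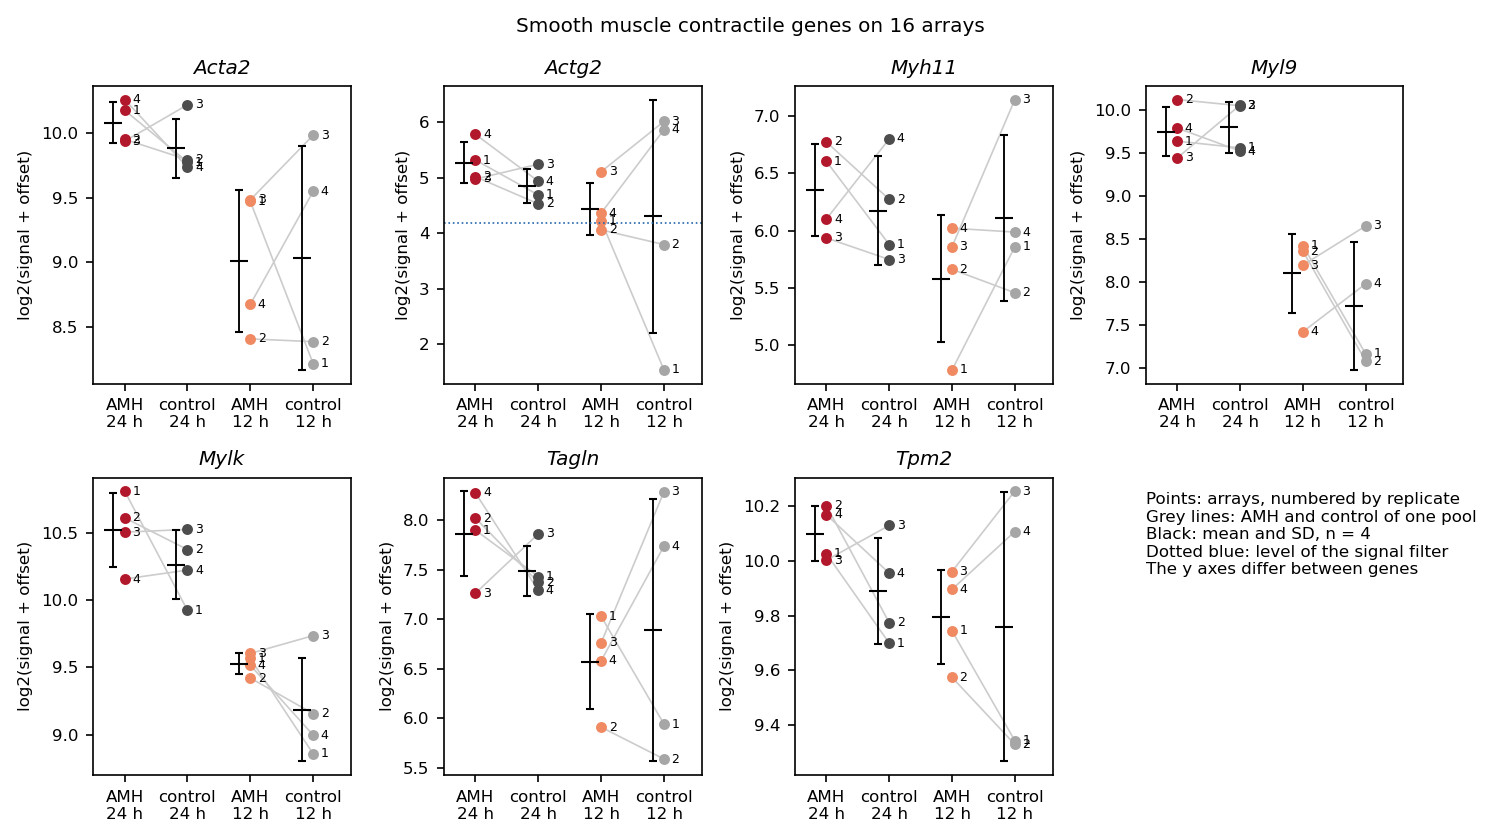
Log2(signal + 1.46) of the 7 genes tested, with 1 panel per gene and its own y axis, by treatment and time on the x axis. Points are arrays numbered by replicate, grey lines join an AMH array to the control from the same pool, black bars are mean and SD (n = 4) and the dotted line in the Actg2 panel is the signal filter. Myl9 and Mylk separated by time in both arms, and the 12 h controls were the most scattered group for all 7 genes.

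The first question was which of these genes differed between 24 h and 12 h of culture. Myl9 and Mylk were higher at 24 h in both arms. With AMH, Myl9 was 3.14-fold higher (log2 change 1.65, SE 0.30, adjusted p = 0.00344 by limma) and Mylk 2.00-fold higher (1.00, SE 0.18, adjusted p = 0.00294). In controls, Myl9 was 4.23-fold higher (2.08, SE 0.30, adjusted p = 0.000348) and Mylk 2.11-fold higher (1.08, SE 0.18, adjusted p = 0.000768). Over all genes tested, 8.28% passed the threshold of 0.05 in the AMH arm (4.34% higher and 3.94% lower at 24 h) and 19.1% in the control arm (9.96% higher and 9.19% lower), so 2 of 7 genes higher is to be read against those shares. With each array centred on its median, the calls in the control arm split into 612 higher and 1873 lower, against 1212 higher and 1118 lower without centring, and in the AMH arm into 282 and 282, against 528 and 480. Myl9 and Mylk stayed called in both arms under that scaling.

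On the brightest probe set of each gene, all 7 genes tested had a change above 0 in each arm. Among all genes 48.1% were above 0 with AMH and 48.6% in controls. The 7 genes were correlated over the arrays, so they do not count as independent. The other Tpm2 probe sets (1419738_a_at, 1419739_at and 1449577_x_at) had 0.27, -0.62 and -0.25 with AMH and -0.01, -0.10 and -0.47 in controls. Cnn1 and Des, below the filter, had 0.10 and -0.17 with AMH and -0.69 and -0.92 in controls when fitted without it (SE 0.59 each). In the AMH arm the median over the 7 was 1.00, against a median of -0.02 over all genes tested. In the control arm it was 0.60, against -0.01. Groups did not overlap for 5 of 7 genes in the AMH arm (Acta2, Tagln, Myl9, Tpm2 and Mylk), where 7.47% of all genes had every 24 h array above every 12 h array, and for 2 of 7 in the control arm (Myl9 and Mylk), where 11.4% did.

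The other 5 genes did not pass the threshold in either arm. The Acta2 change was 1.07 with AMH (SE 0.33, adjusted p = 0.0542) and 0.84 in controls (SE 0.33, adjusted p = 0.0801). Without replicate 3, Acta2 passed with AMH (1.27, adjusted p = 0.049). Tagln had 1.30 (SE 0.46, adjusted p = 0.0915) with AMH and 0.60 (SE 0.46, adjusted p = 0.394) in controls. Actg2 had 0.84 with AMH and 0.55 in controls, with SEs of 0.69. The interval of the Actg2 change in controls, from -0.91 to 2.00 (95%), leaves both directions possible. Myh11 had changes of 0.77 with AMH and 0.06 in controls, and Tpm2 of 0.31 with AMH and 0.13 in controls. In controls the changes of Myh11 and Tpm2 turned below 0 when each array was centred on its median, to -0.12 and -0.05.

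When both arms of a pool were averaged, leaving 4 pools at 24 h and 4 at 12 h, 3 of 7 genes were higher at 24 h, against 12.1% higher and 11.8% lower (23.9% in all) among all genes (1475 higher and 1440 lower, or 913 and 2030 with each array centred on its median). These were Myl9 (1.87, SE 0.17, adjusted p = 0.000192), Mylk (1.04, SE 0.12, adjusted p = 0.000458) and Acta2 (0.96, SE 0.22, adjusted p = 0.013). The fold was 3.64 for Myl9, 2.05 for Mylk and 1.94 for Acta2. Tagln had a change of 0.95 (SE 0.31, adjusted p = 0.0523). This comparison was added after the data were seen. The Acta2 call was lost without replicate 1 (0.90, adjusted p = 0.075) and without replicate 4 (0.98, adjusted p = 0.0697). It was also lost without pairs 1 and 4 at 24 h, which hold the arrays richest in oocyte transcripts at that time (0.95, adjusted p = 0.107), and with the mean of its probe sets (0.71, adjusted p = 0.0783). Without replicate 3, Tagln (1.25, adjusted p = 0.0198) and Myh11 (0.78, adjusted p = 0.0342) passed as well. The calls of Myl9 and Mylk held in all 14 alternatives, with Myl9 changes between 1.70 and 2.04 and Mylk changes between 0.93 and 1.25.

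The 3 probe sets of Mylk moved alike over time. Fitted on their own, the changes were 1.32 for 1425504_at, 1.62 for 1425505_at and 1.00 for 1425506_at with AMH, and 1.01, 1.48 and 1.08 in controls, each at an adjusted p of at most 0.00318. The 4 probe sets of Tpm2 did not move alike. Averaged over pools, 1425028_a_at had a change of 0.22 and 1419738_a_at of 0.13, whereas 1419739_at and 1449577_x_at each had -0.36, and none passed (adjusted p of 0.08 or more).

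**Figure D2:**
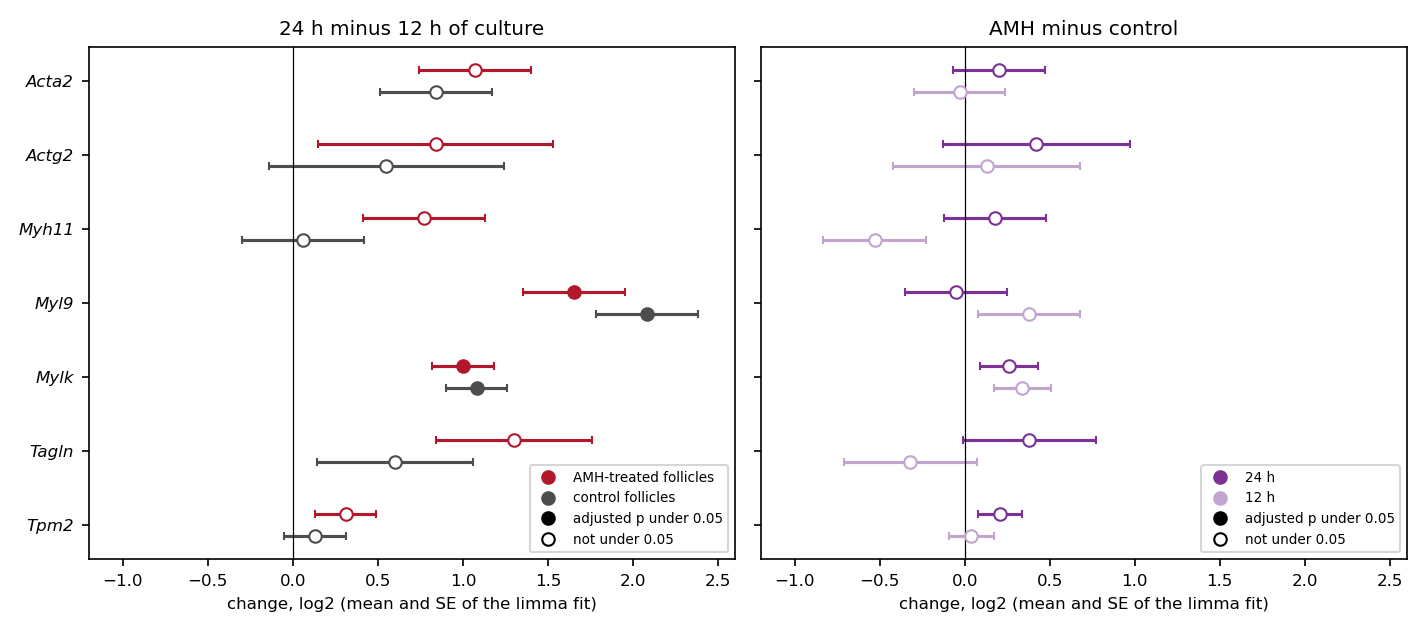
Log2 changes of the 7 genes from the limma fit on the x axis, 24 h minus 12 h in the left panel (AMH-treated above control for each gene) and AMH minus control in the right panel (24 h above 12 h), with bars of 1 SE and filled points for an adjusted p under 0.05. Filled points occur only for Myl9 and Mylk over time, and no point is filled in the comparison of AMH with control.

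The second question was whether AMH altered these genes. None of the 7 passed the threshold at 24 h, where 0.0164% of all genes did (2 of 12172), or at 12 h, for the mean of both times or for the difference between the times, where 0.0% did. At an unadjusted p under 0.05, limma found 496 of all genes at 24 h, 788 at 12 h, 585 for the mean and 687 for the difference. Among the 7 genes, Mylk passed that level for the mean.

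At 24 h the changes lay between -0.05 (Myl9) and 0.42 (Actg2), each with adjusted p = 1.0, and the median was 0.21 against 0.01 over all genes. The Acta2 pairs differed by 0.40, 0.16, -0.28 and 0.52, and those of Tagln by 0.47, 0.65, -0.59 and 0.98. Pair 3 was the one below 0 for Acta2, Tagln, Actg2, Myl9 and Tpm2, and pair 4 for Myh11 (-0.70). On the probe set that stood for each gene, none was above 0 in all 4 pairs, which 5.95% of all genes were. Another probe set of Tpm2, 1419738_a_at, was above 0 in all 4 pairs (0.33, SE 0.14), and the other Mylk probe sets are given below. The 95% intervals reached from -0.40 to 0.80 for Acta2, from -0.48 to 1.24 for Tagln and from -0.11 to 0.63 for Mylk.

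At 12 h the pairs opposed one another. The Acta2 pairs differed by 1.25, 0.02, -0.50 and -0.87, and those of Actg2 by 2.69, 0.26, -0.91 and -1.50. Myl9 differed by 1.27, 1.28, -0.46 and -0.56. Pairs 1 and 2 were above 0 and pairs 3 and 4 below 0 for these 3 genes and for Tagln and Tpm2. The mean changes were -0.03 for Acta2 (95% interval -0.63 to 0.58), -0.32 for Tagln (-1.18 to 0.54) and 0.38 for Myl9 (-0.29 to 1.05). Myh11 had the lowest, -0.53 (SE 0.30, adjusted p = 0.802), and turned to 0.14 with its probe sets averaged. No gene was above 0 in all 4 pairs, against 10.2% of all genes.

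Mylk had the smallest p over both times, with a mean change of 0.30 (SE 0.12, unadjusted p = 0.0294, adjusted p = 0.992), above 0 in 5 of 8 pairs. On this brightest probe set the pairs differed by 0.89, 0.24, -0.02 and -0.07 at 24 h. At 12 h they differed by 0.71, 0.26, -0.13 and 0.52. The largest differences of this probe set were those of pair 1. At 24 h 1425504_at (0.55, SE 0.15, adjusted p = 0.824 by limma) and 1425505_at (0.44, SE 0.26) were above 0 in all 4 pairs. For 1425504_at the signals were 373, 291, 380 and 239 with AMH and 215, 207, 230 and 209 in controls, without overlap. Over both times these probe sets had 0.39 (SE 0.10) and 0.37 (SE 0.18), and neither passed. The difference between the AMH effect at 24 h and that at 12 h lay between -0.43 (Myl9) and 0.71 (Myh11), with adjusted p values between 0.918 and 0.988.

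How the genes varied within groups was described without a test. The pooled within-group SD of log2 signal was 1.11 for Actg2, wider than that of 99.4% of all genes tested, and 0.75 for Tagln (95.2%), 0.55 for Myh11 (87.3%), 0.53 for Acta2 (86.2%) and 0.48 for Myl9 (82.6%). Tpm2 (0.28) and Mylk (0.27) lay near the median of all genes (0.27). The ratio of the highest to the lowest array of a group, computed on signal + 1.46, had a median over the 7 genes of 1.60 with AMH at 24 h, 1.49 in 24 h controls, 2.08 with AMH at 12 h and 3.23 in 12 h controls. In 12 h controls it reached 22.3, for Actg2. The lowest array there, replicate 1, had an Actg2 signal of 1.43, below the offset of 1.46 and the filter signal of 16.6. The Actg2 SD was 2.11 in 12 h controls and between 0.31 and 0.47 in the other groups, so its pooled SD rests largely on the 12 h controls.

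The arrays behind this spread were the same for most genes. Among 12 h controls, replicate 3 was highest for 7 of 7 genes, and the lowest array was replicate 1 or 2 for all 7. That replicate 3 array also held the highest pericyte sum (1650), stroma sum (6256), endothelial sum (3525) and immune sum (1467) of its group, and the part of these cell types in its signals was not tested. At 24 h, replicate 3 was lowest for 6 of 7 genes among AMH arrays and highest for 6 of 7 among controls. That AMH array had the highest pericyte sum of its group (1780), and the control array likewise (1068).

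The genes followed one another to different degrees over the 16 arrays, which share pools in pairs. Acta2 and Tagln correlated at 0.93 (Pearson) and at 0.92 after group means were removed. Tagln and Tpm2 correlated at 0.89, and at 0.91 without group means. Myl9 and Mylk correlated at 0.91, but at 0.54 without group means. Myh11 followed the others least, at 0.41 to 0.57.

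Outside the 9 genes, the nearest patterns were those of Cnn2 (r = 0.922, 16 arrays), Selenop (0.914), Nudt6 (0.900), Sult5a1 (0.897) and St6galnac3 (0.892), where r compares log2 signal with the mean of the standardised signals of the 7 genes. Without the 2 arrays farthest from the median of that mean, r was 0.886 for Cnn2, 0.825 for Selenop, 0.873 for Nudt6, 0.832 for Sult5a1 and 0.883 for St6galnac3.

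**Figure D3:**
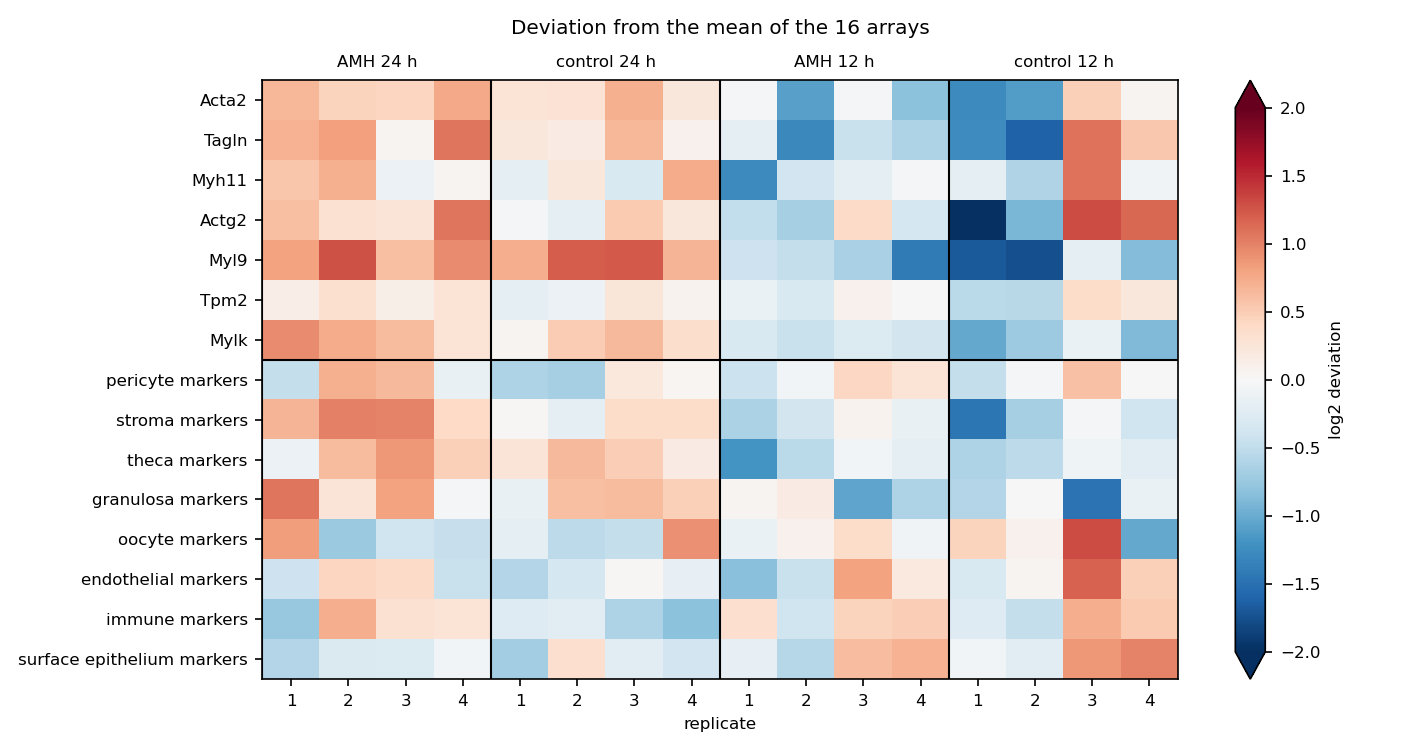
Deviation of log2 signal from the mean of the 16 arrays, as colour, for the 7 genes (rows above the line) and for the mean of each cell type marker list (rows below), with arrays as columns ordered by group and replicate. The 12 h control of replicate 3 is high for all 7 genes except Myl9 and Mylk, and high in oocyte, endothelial, surface epithelium, immune and pericyte markers.

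The markers of cells that could carry these transcripts were compared between the times as well. Their counts are to be read against the shares of all genes. These were 4.34% higher and 3.94% lower with AMH, and 9.96% higher and 9.19% lower in controls. Of 6 pericyte markers, which label the contractile cells of small vessels, none passed in either arm, with medians of 0.07 with AMH and -0.31 in controls. The summed pericyte signal lay between 698 and 1780 with AMH at 24 h and between 746 and 1608 with AMH at 12 h. In controls it lay between 569 and 1068 at 24 h and between 702 and 1650 at 12 h. Stroma markers were higher at 24 h for 3 of 9 genes with AMH and for 6 of 9 in controls, and their summed signal lay between 6944 and 10963 with AMH at 24 h, against 4457 to 6978 with AMH at 12 h. In controls it lay between 5837 and 8233 at 24 h and between 2749 and 6256 at 12 h. Of 5 theca markers tested, 2 were higher with AMH and 1 in controls, while the theca markers Gli1, Hhip, Insl3 and Lhcgr were not tested. The AMH count includes Cyp17a1, whose 12 h mean log2 signal of 3.69 with AMH was below the filter of 4.18. Cyp17a1 was thus tested in that arm only through its 24 h arrays. Of 9 granulosa markers, 3 were higher with AMH and 6 in controls. Both counts include Fshr, whose 12 h mean log2 signals, 4.22 with AMH and 3.90 in controls, were near or below the filter. None of the 14 oocyte markers passed in either arm. Of 10 endothelial markers, none passed with AMH and 1 was lower in controls, and of 8 immune markers 1 was lower with AMH and 2 in controls. Of 8 surface epithelium markers, 2 were lower with AMH and 4 in controls.

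Marker levels and contractile genes were compared over the 16 arrays as a description, given here for Mylk, Myl9 and Acta2. The stroma mean correlated at 0.87 with Mylk, 0.77 with Myl9 and 0.76 with Acta2, and at 0.60, 0.38 and 0.54 after group means were removed. The pericyte mean correlated at 0.14 with Mylk, 0.01 with Myl9 and 0.15 with Acta2, and at 0.43, 0.24 and 0.28 after group means were removed. For the theca mean the values were 0.72, 0.74 and 0.64, against 0.13, 0.14 and 0.16 without group means. The granulosa mean gave 0.63, 0.57 and 0.32 in the same order of genes, and -0.05, -0.24 and -0.38 without group means. The endothelial mean gave -0.07, -0.15 and 0.13, and 0.54, 0.34 and 0.48 without group means. For surface epithelium the values were -0.40, -0.38 and -0.04, and 0.28, 0.33 and 0.59 without group means. For immune markers they were -0.18, -0.15 and 0.12, and 0.10, 0.45 and 0.54. For oocyte markers they were -0.05, -0.20 and -0.11, and 0.43, -0.01 and 0.07. Without group means, stroma was thus highest for Mylk, immune markers for Myl9 and surface epithelium for Acta2 among the lists given here. The part of any of these cell types in the 24 h values was not tested.

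The wider contractile and cytoskeletal set split in direction. Of 15 genes tested among 18 listed, 2 were higher and 2 lower at 24 h in each arm, with medians of -0.03 with AMH and -0.08 in controls. Among all genes, 8.28% were called with AMH and 19.1% in controls. Itga8, the alpha-8 integrin subunit of smooth muscle and other mesenchymal cells, was 7.92-fold higher with AMH (2.99, SE 0.30, adjusted p = 3.99e-05) and 3.42-fold higher in controls (1.77, SE 0.30, adjusted p = 0.00102). Csrp1, a LIM protein of smooth muscle, was higher with AMH (0.91, SE 0.17, adjusted p = 0.00344), and Synm, the intermediate filament protein synemin, in controls (1.53, SE 0.34, adjusted p = 0.00595). Pdlim7, a PDZ and LIM protein of actin structures, was lower by a log2 change of -1.10 in both arms (SE 0.15, adjusted p = 0.000436 with AMH and 0.00021 in controls). Flna, the actin crosslinker filamin A, fell by 0.35 with AMH and by 0.41 in controls. Lmod1 and Synpo2 were among those not tested.

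The calls among 9 regulators of the programme are to be read against 8.28% of all genes called with AMH and 19.1% in controls. Klf4, a factor known to repress smooth muscle genes, was lower at 24 h by a log2 change of -1.07 with AMH (SE 0.28, adjusted p = 0.0259) and of -1.12 in controls (SE 0.28, adjusted p = 0.0106). It was 1 of 9 genes called with AMH. In controls 3 of 9 were called, since Tead1, a partner of the YAP coactivator, was lower (-0.47, adjusted p = 0.0201) and Notch3, a receptor of vascular smooth muscle, higher (0.85, adjusted p = 0.0473). The median of the 9 was -0.04 with AMH and -0.07 in controls.

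Among 7 genes that set the phosphorylation of the myosin light chain, Ppp1r14a was the 1 that passed. It encodes CPI-17, an inhibitor of myosin phosphatase, and was 2.70-fold higher at 24 h with AMH (1.43, SE 0.33, adjusted p = 0.0149) and 3.20-fold higher in controls (1.68, SE 0.33, adjusted p = 0.00284). The median of the 7 was -0.07 with AMH and -0.06 in controls, where 8.28% and 19.1% of all genes were called. Rock2 and Prkg1 were among those not tested.

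Of the agonists and receptors of contraction, 3 of 8 were tested. Their calls are to be read against 8.28% of all genes called with AMH and 19.1% in controls. Oxtr, the oxytocin receptor, had mean log2 signals of 6.04 with AMH at 24 h and 4.18 with AMH at 12 h (adjusted p = 0.02), and of 5.86 in 24 h controls and 3.22 in 12 h controls (adjusted p = 0.00116). Its 12 h means were at or below the filter of 4.18, so it was tested only through its 24 h arrays, and no fold is given. Ednrb, an endothelin receptor, was lower in controls (-1.80, SE 0.58, adjusted p = 0.0389). Its groups overlapped. Edn1 was called in neither arm (0.92 with AMH and 0.02 in controls, SE 0.73 each). Edn2, Ednra, Agtr1a, Agtr2 and Ptgfr were not tested.

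The paralogues of the 9 genes in other cells had medians below 0. Of 13 tested, 1 was called with AMH, with a median of -0.28, and 3 in controls, with a median of -0.08, against 8.28% of all genes called with AMH and 19.1% in controls. Tpm3, a tropomyosin of many cell types, fell by 0.37 with AMH (adjusted p = 0.0123) and by 0.42 in controls (adjusted p = 0.00283). In controls Tagln2, the non-muscle transgelin, was lower (-0.90, adjusted p = 0.0114) and Myl12b, a non-muscle regulatory light chain, higher (0.64, adjusted p = 0.00882). Cnn2, the calponin whose pattern was nearest to the 7 genes, was higher over pool means (0.74, SE 0.23, adjusted p = 0.0393), where the pools of the 2 times overlapped, and was called in neither arm (adjusted p = 0.077 with AMH and 0.132 in controls).

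**Figure D4:**
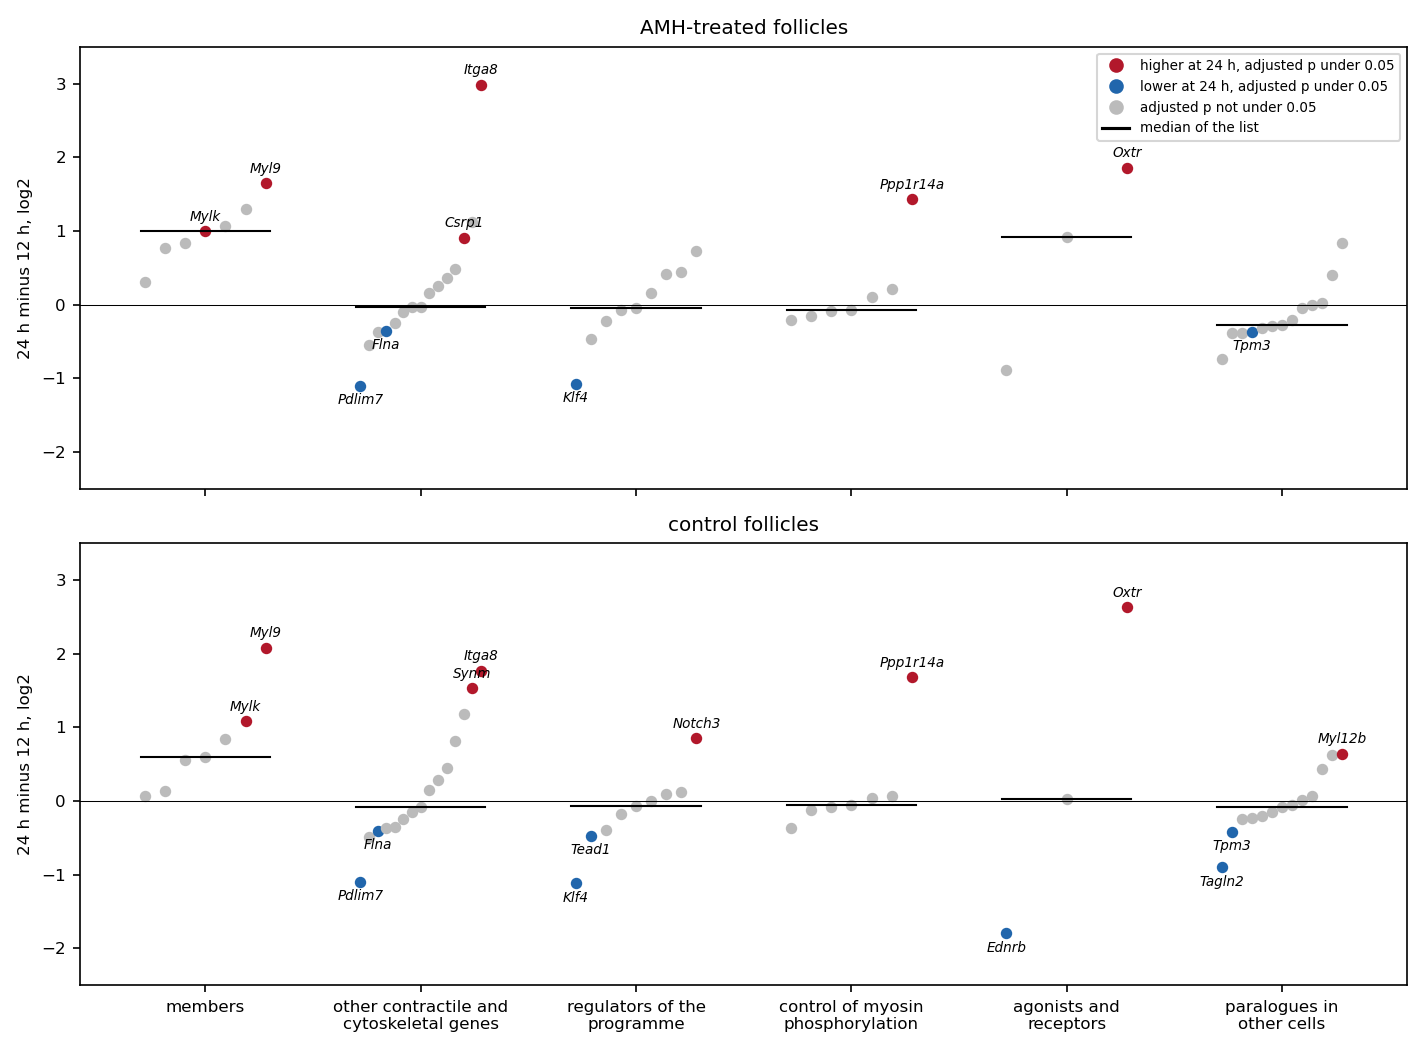
Log2 change between 24 h and 12 h on the y axis for the 7 contractile genes and 5 lists of related genes on the x axis, in AMH-treated follicles (upper panel) and controls (lower panel). Points are genes, coloured where the adjusted p was under 0.05, and black lines are medians, which lay at 1.00 with AMH and 0.60 in controls for the contractile genes and near 0 for the wider contractile set.

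With AMH against control, no gene of these 5 lists passed at either time. The signs of the pairs are given for up to 2 genes of smallest p in each list. They are to be read against the share of all genes above 0 in all 4 pairs, 5.95% at 24 h and 10.2% at 12 h. At 24 h all 4 pairs were above 0 for Itga8 (1.15, SE 0.31) and for Csrp1 (0.45, SE 0.13), at adjusted p = 0.813 for both. They were also above 0 for Fhl2 (0.30, SE 0.23) and for Myocd, which encodes myocardin (0.90, SE 0.44), both at adjusted p = 1.0, but the mean log2 signal of Myocd, 4.90 with AMH and 4.00 in controls, was below the filter in controls. Synm had -0.70 (SE 0.27, adjusted p = 1.0). At 12 h all 4 pairs were above 0 for Srf, at 0.43 (SE 0.15, adjusted p = 0.669), and for Myl6, an essential light chain of myosin, at 0.64 (SE 0.16, adjusted p = 0.479). The same held for Actn1 (0.19, SE 0.11, adjusted p = 0.815) and for Oxtr (0.96, SE 0.42, adjusted p = 0.744), whose means were at or below the filter there. Mrtfa was below 0 in all 4 pairs at 12 h (-0.18, SE 0.12, adjusted p = 0.834). Among cell type markers, the stroma gene Dpt, which encodes dermatopontin, was higher with AMH at 24 h (1.82, SE 0.23, adjusted p = 0.048), and no pericyte marker passed. That call was lost without the filter, with quantile normalization, with probe sets averaged, with only the arrays compared, without the pairs as a block and without replicate 2, 3 or 4, where 0 of all genes were called. The summed stroma signal lay between 6944 and 10963 with AMH at 24 h, against 5837 to 8233 in 24 h controls.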

How the data were processed

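RNA from 16 samples of mouse ovarian follicles was amplified from 5 ng and hybridised to Affymetrix arrays, per the labels' protocols. The authors deposited 1 linear intensity per probe set and array. The submitters' processing notes name MAS5, whose version is not given in the sources used here. After 64 control probe sets were removed from 45101, the annotation table gave 1 gene symbol for 34945, several for 932 and none for 9160. Signals became log2(signal + 1.46), the offset being the 10th percentile. A probe set was kept from a mean log2 of 4.18 (the 40th percentile, signal 16.6), and the brightest kept one stood for its gene. Detection calls were not analysed here.

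Models were fitted over all genes with limma 3.58.1 in R 4.3.3 (variances moderated along the mean, Benjamini-Hochberg threshold 0.05), and figures drawn with matplotlib 3.10.9. AMH comparisons used the 8 pairs as a block, because the labels state that samples are comparable in pairs. Deviations of paired arrays correlated at 0.214 to 0.56 at 12 h and at -0.437 to 0.327 at 24 h. Time comparisons had no block. Code was tested on simulated data. The genes and lists were chosen with earlier results of these data known. All 9 genes are named whatever their values, with the up to 4 called genes of smallest p in each list (or up to 2 values where none was called) and the 5 nearest patterns. The pool-mean comparison, the fits without the pairs rich in oocyte transcripts and the fits of single probe sets were added after the data were seen. Alternatives covered offsets, filters, scalings, probe set averaging, robust moderation, blocks, fewer arrays and each replicate left out.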

Additional observations from a re-analysis of the deposited data

Results flagged for a closer look

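One value was far from the rest of its group. Acta2 in 24 h controls had a log2 signal of 10.21 in replicate 3, and the gap to the nearest of the other 3 arrays, divided by the range of the group, exceeded Dixon's 95% critical value for groups of 4. The check was made for 7 genes in 4 groups, 28 in all, and chance flags about 1 in 20. The same array held the highest signal of its group for 6 of 7 genes.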

How the results depend on the processing

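No gene of the 7 was called for AMH under any alternative, and Myl9 and Mylk were called over time in each arm under all 15. In the AMH arm the count of genes called over time was 4 in place of 2 with only the arrays compared (Acta2 and Tagln added) and 3 with quantile normalization (Acta2, 1.10, adjusted p = 0.046), and leaving out each replicate gave 2 to 3. Averaged over pools, leaving out each replicate gave 2 to 5 genes in place of 3. With the replicate number as a block, the time comparisons called 3 genes with AMH (Acta2, 1.07, adjusted p = 0.0391, added) and 2 in controls, and without the pairs as a block the AMH comparisons called 0.

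Several changes that were not called turned their sign, and the cause was not tested. For AMH at 24 h, Myl9 was 0.07 with median centring and -0.15 to 0.14 with each replicate left out, Myh11 -0.01 to 0.47 with each replicate left out, and Acta2 -0.06 without pairs 1 and 4 at 24 h. For AMH at 12 h, Actg2 was -0.17 with an offset of 16, Tpm2 0.0 with median centring, and Acta2 0.03 and Myh11 0.14 with probe sets averaged. With each replicate left out, Acta2 ranged from -0.45 to 0.26, Actg2 from -0.72 to 0.68, Tagln from -0.79 to 0.08 and Tpm2 from -0.09 to 0.14. For the mean of both times, Myh11 was 0.11 with probe sets averaged, Acta2 -0.04 and Tagln -0.15 without pairs 1 and 4 at 24 h. With replicates left out, Acta2 ranged from -0.16 to 0.25, Actg2 from -0.18 to 0.57, Myl9 from 0.0 to 0.40 and Tagln from -0.22 to 0.39. For the difference between times, Mylk was 0.07 with median centring and 0.12 with probe sets averaged, Myh11 -0.07 with probe sets averaged, and Acta2 -0.04 and Actg2 -0.02 without those pairs. With replicates left out, Acta2 ranged from -0.17 to 0.58, Actg2 from -0.40 to 1.07 and Mylk from -0.17 to 0.09. Over time, Tpm2 with probe sets averaged was -0.07 with AMH, -0.11 in controls and -0.09 over pools. In controls Myh11 was -0.06 with quantile normalization, -0.12 with median centring and -0.10 without those pairs, and Tpm2 -0.05 with median centring. With replicates left out in controls, Actg2 ranged from -0.32 to 1.04 and Myh11 from -0.19 to 0.55. Median centring moved the median of all genes to 0.12 for AMH at 24 h, 0.15 for the difference, -0.19 for time in controls and -0.12 over pools. The count of all genes called over time ranged from 331 to 1049 with AMH, 1185 to 2485 in controls and 803 to 3024 over pools, and for AMH from 0 to 6.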

Other observations

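Cnn1 and Des were tested only when the signal filter was removed, over 18193 genes. With AMH against control at 24 h, the change was then 0.51 for Cnn1 (SE 0.41) and 0.82 for Des (SE 0.55), at adjusted p = 1.0 for both. Between 24 h and 12 h with AMH, Cnn1 had 0.10 (SE 0.59, adjusted p = 0.96) and Des -0.17 (SE 0.59, adjusted p = 0.931). In controls Cnn1 had -0.69 (SE 0.59, adjusted p = 0.505) and Des -0.92 (SE 0.59, adjusted p = 0.358), and over pool means the values were -0.30 and -0.54.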
